A study of Mus musculus with 10 samples.

Results

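The 8 troponin genes and both sarcomeric actin genes of striated muscle were described in gastrocnemius muscle of desmin knock-out and wild-type mice. Members were chosen by name, as Tnnc1, Tnnc2, Tnni1, Tnni2, Tnni3, Tnnt1, Tnnt2, Tnnt3, Acta1 and Actc1, and made up 10 of the 54232 genes in the table. All 10 were among the 14289 genes with a mean expression high enough to be tested. RNA-seq was available from 5 homozygous knock-out mice (Des -/-) and 5 wild-type mice (Des wt/wt). The strain label B6J.129Sv-Destm1Cba/Cscl was the same for both genotypes, and the methods describe the wild-type mice as littermates and the animals as 3 months old. The knock-out is constitutive, so that all tissues lacked desmin and the muscle had also developed without it. Muscles were taken as whole tissue, and in such samples fewer cells of a type and less RNA per cell cannot be told apart. The labels give gastrocnemius as the source, whereas the study's text also names the neighbouring plantaris, so that both muscles may be in a sample and their share per mouse is unknown. The methods speak of pooled RNA from 5 muscles per genotype, whereas the table holds a column per mouse, and each column was used as 1 replicate. The authors deposited rlog values, a log2 measure of expression from DESeq2 that corrects for library size and shrinks weakly supported differences. Folds given here are 2 to the power of an rlog difference, and n is 5 mice per genotype throughout.

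Troponin sits on the thin filament of the sarcomere and switches contraction on. Troponin C binds calcium, troponin I inhibits the interaction of actin with myosin, and troponin T anchors the complex to tropomyosin. Each subunit has a version typical of slow fibers, fast fibers or the heart, and the cardiac troponin T and cardiac actin genes are also used by developing and regenerating skeletal muscle. Acta1 encodes the actin of adult skeletal muscle, Actc1 that of the heart. Desmin forms the intermediate filaments that tie neighbouring myofibrils together at their Z-discs.

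Desmin RNA separated the genotypes as labelled. Des had rlog values of 11.76 to 11.89 in knock-out and 16.10 to 17.74 in wild-type mice, a difference of -4.73. Wild-type mouse 3 stood apart from the other 9 mice. Summed over all genes on the linear scale, its expression came to 1.48 times that of the median mouse, compared with 0.949 to 1.06 times in the others, and the 10 troponin and actin genes took 9.33% of that sum compared with 6.32% to 8.47%. This mouse had the highest value of all mice for 5 of the 10 genes and the highest wild-type value for 8, and results are therefore also given without it. Of the skeletal muscle markers, all 8 were among the tested genes. Of the cardiac muscle markers, Nppa, Nppb, Myl7, Tbx5 and Nkx2-5 had rlog values of at most 1 in all mice. The summed level of the list was 8.19 to 8.62 in knock-out and 7.19 to 8.57 in wild-type mice. Most of this sum came from Gja1, with 8.02 to 8.44 in knock-out and 6.88 to 8.48 in wild-type mice. Myh6 had only 4.10 to 5.18 in knock-out and 3.64 to 4.77 in wild-type mice.

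To show the DNA next to the genes whose expression differed most, the upstream regions of Tnnt1, Tnni1, Tnnt2 and Actc1 are printed with that of Acta1, against which Actc1 was compared. Sequences were taken from RefSeq promoters (GRCm38.p6), which cover 250 bases before and 50 after a gene's start and were found for 8 of the 10 genes, but not for Tnni2 and Tnnt3. Each is given 5′ to 3′ on the gene's strand, without bases that lie in an annotated exon. The windows belong to the RefSeq start, and for Tnnt1, Tnni1 and Actc1 this start lies inside the gene's span in GENCODE, which begins further upstream, so that these stretches are intronic there. Tnni1 and Tnnt2 have a second RefSeq window each, and the upstream one is shown. Capitals mark matches, on either strand, to the E-box CANNTG (bound by myogenic factors such as MyoD and myogenin), to the MCAT element CATTCC (bound by TEAD factors), to the letters TATAAA and, by name, to the CArG box (bound by serum response factor).
The stretch before the RefSeq start of slow troponin T, at chr7:4516005-4516225 on the minus strand, holds 1 E-box.
Tnnt1: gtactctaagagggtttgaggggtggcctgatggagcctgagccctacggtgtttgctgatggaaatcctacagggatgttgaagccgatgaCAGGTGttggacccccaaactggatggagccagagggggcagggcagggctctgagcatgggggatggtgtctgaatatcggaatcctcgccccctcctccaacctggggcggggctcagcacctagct
That of slow troponin I, at chr1:135799171-135799401 on the plus strand, holds 4 E-boxes.
Tnni1: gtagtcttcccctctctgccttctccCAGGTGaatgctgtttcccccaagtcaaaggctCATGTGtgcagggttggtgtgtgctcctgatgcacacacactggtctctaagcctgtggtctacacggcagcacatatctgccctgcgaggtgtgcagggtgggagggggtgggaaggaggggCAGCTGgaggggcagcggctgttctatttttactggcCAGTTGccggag
That of cardiac troponin T, at chr1:135836084-135836333 on the plus strand, holds 4 E-boxes and 1 MCAT element.
Tnnt2: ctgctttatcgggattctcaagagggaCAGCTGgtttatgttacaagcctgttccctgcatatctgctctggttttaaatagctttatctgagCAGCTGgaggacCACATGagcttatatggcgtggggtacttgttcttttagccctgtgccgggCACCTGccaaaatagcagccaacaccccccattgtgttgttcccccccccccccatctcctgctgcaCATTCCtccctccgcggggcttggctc
That of cardiac actin, at chr2:114052888-114053125 on the minus strand, holds 1 CArG box.
Actc1: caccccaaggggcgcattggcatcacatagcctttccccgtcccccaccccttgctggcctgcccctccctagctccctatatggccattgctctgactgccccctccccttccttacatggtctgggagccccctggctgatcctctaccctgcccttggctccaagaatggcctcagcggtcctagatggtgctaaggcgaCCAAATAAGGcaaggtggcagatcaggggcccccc
That of skeletal actin, at chr8:123894776-123895025 on the minus strand, holds 2 E-boxes, 1 MCAT element, 1 TATAAA and 1 CArG box.
Acta1: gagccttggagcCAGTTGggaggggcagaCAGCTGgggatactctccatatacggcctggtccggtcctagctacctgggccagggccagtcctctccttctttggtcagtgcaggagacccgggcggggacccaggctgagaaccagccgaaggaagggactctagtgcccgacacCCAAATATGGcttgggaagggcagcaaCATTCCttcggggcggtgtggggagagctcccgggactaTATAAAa

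In the full windows, an E-box was found in 8 of 8 genes, but also in 72.3% of all 32851 mouse promoter windows. A CArG box was found in 2 of 8, Acta1 and Actc1, and in 1.63% of all windows. The MCAT element was found in Acta1, Tnnc1 and Tnnt2, and in 14.7% of all windows. TATAAA was found in Acta1, Actc1 and Tnnt1, and in 13.6% of all windows, and the MEF2 box was in none of the 8 and in 3.19% of all. These matches describe the letters of the windows only.

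Of the 10 genes, 4 were higher and 1 was lower in desmin knock-out muscle at an adjusted p under 0.05 (limma with Benjamini-Hochberg adjustment over all tested genes), and 5 did not pass. Among all tested genes, 13.7% passed, 7.70% as higher and 5.99% as lower. The 4 higher genes were slow Tnnt1 and Tnni1 and cardiac Tnnt2 and Tnni3, and the lower gene was cardiac Actc1. Tnni3 reached the expression limit only through its higher knock-out values. None of the 3 fast troponins passed, and Acta1 did not. The genotypes did not overlap for 4 of the 10 genes (Tnnt1, Tnnt2, Tnni3 and Tnnt3), and for 14.4% of all tested genes. The median difference over all tested genes was -0.0029. For the most highly expressed genes, however, the size of a difference depended on the scaling. Quantile normalization changed it from -0.40 to 0.039 for Tnnt3 and from -0.42 to -0.085 for Acta1. Without wild-type mouse 3, 5 of the 10 genes were higher and 0 lower, since slow Tnnc1 then passed the test and Actc1 did not. Calls over all tested genes then also rose, to 17.5% (9.34% higher and 8.13% lower).

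**Figure D1:**
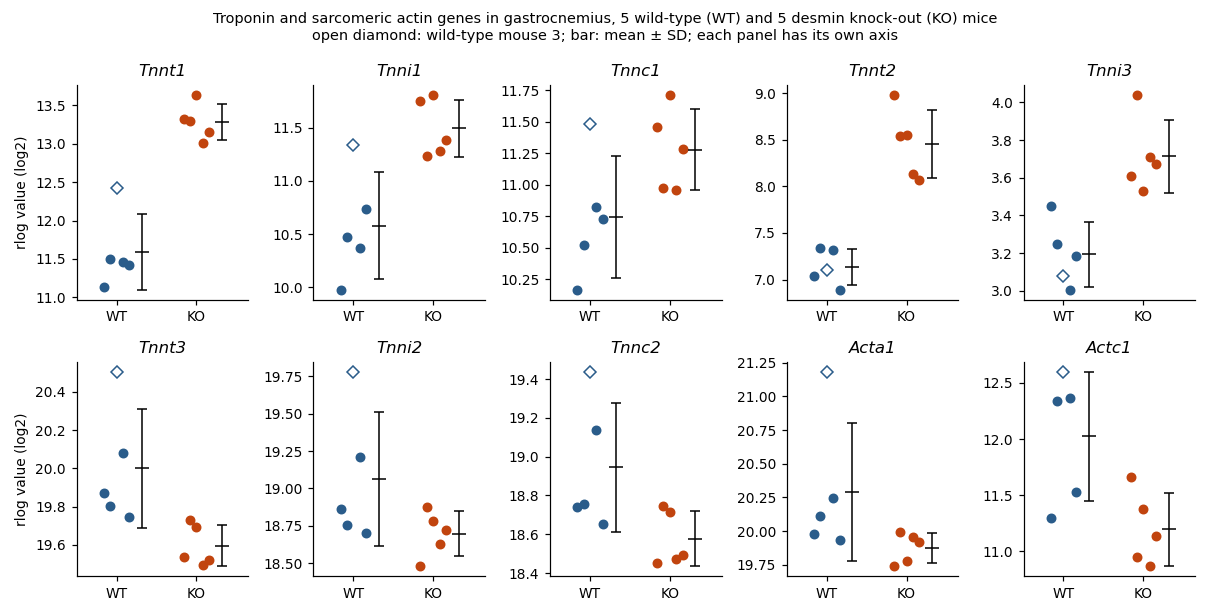
rlog values (log2, vertical axes, each panel with its own range) of the 10 genes in 5 wild-type (blue) and 5 desmin knock-out mice (red), with wild-type mouse 3 as an open diamond and the mean ± SD as a bar. Tnnt1, Tnnt2 and Tnni3 have all 5 knock-out points above the wild-type points, while the fast troponins and Acta1 have their highest point in wild-type mouse 3.

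Tnnt1, the troponin T of slow fibers, differed most. Its rlog values were 13.32, 13.30, 13.64, 13.02 and 13.15 in the 5 knock-out mice and 11.14, 11.50, 12.43, 11.46 and 11.41 in the 5 wild-type mice. Every knock-out value lay above every wild-type value, including that of wild-type mouse 3, which was the highest of its group. The mean rose from 11.59 ± 0.49 to 13.28 ± 0.23 (SD, n = 5 each), a difference of 1.70 (SE 0.20, 95% interval 1.26 to 2.13, adjusted p = 8.53e-05 by limma) or 3.24-fold. Leaving out any 1 mouse gave differences between 1.58 and 1.91. Tnnt1 (ENSMUSG00000064179) lies on chromosome 7 at 4504570 to 4516382 (GRCm38) on the minus strand, only 1.92 kb from Tnni3 with no coding gene between them.

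Tnni1, the troponin I of slow fibers, was higher as well. Values were 11.75, 11.24, 11.81, 11.28 and 11.38 in knock-out and 9.98, 10.47, 11.34, 10.37 and 10.73 in wild-type mice. The groups overlapped only through wild-type mouse 3, which reached the knock-out range. The mean rose from 10.58 ± 0.50 to 11.49 ± 0.27, a difference of 0.91 (SE 0.21, 95% interval 0.46 to 1.37, adjusted p = 0.0103 by limma) or 1.88-fold. Without wild-type mouse 3 the difference was 1.10 (adjusted p = 2.69e-04). Tnni1 (ENSMUSG00000026418) lies on chromosome 1 at 135779434 to 135810989 on the plus strand.

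Tnnc1 encodes the troponin C that slow fibers share with the heart. It had values of 11.46, 10.97, 11.71, 10.96 and 11.29 in knock-out and 10.17, 10.52, 11.48, 10.83 and 10.73 in wild-type mice. Wild-type mouse 3 lay above 4 of the 5 knock-out mice, whereas the other wild-type mice lay below all of them. The difference of 0.53 (SE 0.21, 95% interval 0.074 to 0.99) did not pass in the fit of all mice (adjusted p = 0.121 by limma), and it was 0.72 without wild-type mouse 3 (adjusted p = 0.00835). Tnnc1 (ENSMUSG00000091898) lies on chromosome 14 at 31208312 to 31211729 on the plus strand, within the span of Nisch on the opposite strand, and its transcripts shared no stretch of 50 bases with other transcripts.

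Tnnt2, the cardiac troponin T that developing skeletal muscle also uses, was second in the size of its difference. Values were 8.98, 8.54, 8.55, 8.13 and 8.07 in knock-out and 7.04, 7.34, 7.10, 7.32 and 6.89 in wild-type mice, with no overlap. Wild-type mouse 3 lay in the middle of its group here. The mean rose from 7.14 ± 0.19 to 8.45 ± 0.37 (SD, n = 5 each), a difference of 1.32 (SE 0.17, 95% interval 0.96 to 1.67, adjusted p = 1.33e-04 by limma) or 2.49-fold. Tnnt2 (ENSMUSG00000026414) lies on chromosome 1 at 135836354 to 135852260 on the plus strand, 25.4 kb from Tnni1. Both genes are on the chromosome of Des, at 60.5 and 60.4 Mb from it.

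Tnni3, the cardiac troponin I, was at the edge of detection. Its wild-type mean of 3.19 lay under the expression limit, the log2 of 10, and it was tested only because its knock-out mean of 3.71 raised the mean of all mice above it, so that its call is no support for a rise of cardiac troponins. Its values were 3.61, 4.04, 3.53, 3.71 and 3.68 in knock-out and 3.45, 3.25, 3.08, 3.01 and 3.18 in wild-type mice. Knock-out values all lay above wild-type values, and the closest values were 3.53 and 3.45. The difference was 0.52 (SE 0.13, 95% interval 0.24 to 0.79, adjusted p = 0.0158 by limma) or 1.43-fold, but only 0.238% of tested genes had a lower wild-type mean, and rlog values are shrunken most at so low a level. Tnni3 (ENSMUSG00000035458) lies on chromosome 7 at 4518305 to 4524229 on the minus strand, where 86 of its exonic bases are also inside Dnaaf3 on the same strand.

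The fast troponins made up the bulk of troponin RNA in this muscle, and none passed the test. Tnnt3, fast troponin T, had values of 19.54, 19.73, 19.69, 19.49 and 19.52 in knock-out and 19.87, 19.80, 20.51, 20.08 and 19.75 in wild-type mice. All 5 knock-out values lay below the 5 wild-type values, but the groups were close and wild-type mouse 3 widened the spread of its own. The difference was -0.40 (SE 0.20, 95% interval -0.83 to 0.024, adjusted p = 0.208 by limma), -0.28 without wild-type mouse 3, and 0.039 after quantile normalization, so that its sign depended on the scaling.

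Tnni2, fast troponin I, had values of 18.48, 18.88, 18.79, 18.63 and 18.73 in knock-out and 18.86, 18.76, 19.78, 19.21 and 18.70 in wild-type mice. Tnnc2, fast troponin C, had 18.45, 18.75, 18.72, 18.47 and 18.49 in knock-out and 18.74, 18.75, 19.44, 19.14 and 18.66 in wild-type mice. Both overlapped between genotypes. Differences were -0.36 for Tnni2 (SE 0.22, 95% interval -0.83 to 0.10, adjusted p = 0.300 by limma) and -0.37 for Tnnc2 (SE 0.19, 95% interval -0.77 to 0.035, adjusted p = 0.223). They were -0.18 and -0.25 without wild-type mouse 3, and -0.069 and -0.079 after quantile normalization. Tnnc2 shares genomic sequence with Ube2c on the opposite strand, and 55.0% of the 50-base stretches in its transcript also occur in Ube2c transcripts. Whether reads were counted by strand is not stated. Ube2c had values of 9.30 to 10.88 in knock-out and 9.39 to 10.05 in wild-type mice. An effect of the overlap on Tnnc2, its level per length or the shares of troponin C was not tested. Tnni2 (ENSMUSG00000031097, chromosome 7, 142441808 to 142444410) and Tnnt3 (ENSMUSG00000061723, chromosome 7, 142498836 to 142516009) lie 54.4 kb apart, with 1 protein-coding gene between them. Tnnc2 (ENSMUSG00000017300) lies on chromosome 2 at 164777161 to 164779967.

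Neither sarcomeric actin was higher in knock-out muscle. Acta1, the skeletal actin, had values of 19.74, 19.99, 19.77, 19.96 and 19.92 in knock-out and 19.98, 20.12, 21.18, 20.25 and 19.93 in wild-type mice. Wild-type mouse 3 lay 1.11 above the mean of the other wild-type mice, which reached from 19.93 to 20.25 and so partly overlapped the knock-out mice. The difference was -0.42 (SE 0.25, 95% interval -0.96 to 0.12, adjusted p = 0.304 by limma), -0.19 without wild-type mouse 3, and -0.085 after quantile normalization. Acta1 (ENSMUSG00000031972) lies on chromosome 8 at 123891769 to 123894751 on the minus strand.

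Actc1, the cardiac actin, was the only one of the 10 genes to pass the test as lower in knock-out muscle. Values were 11.66, 10.95, 11.38, 10.87 and 11.14 in knock-out and 11.29, 12.34, 12.60, 12.37 and 11.53 in wild-type mice. Wild-type mice 2, 3 and 4 lay above all knock-out mice, while wild-type mice 1 and 5 lay within their range. The mean fell from 12.03 ± 0.58 to 11.20 ± 0.33 (SD, n = 5 each), a difference of -0.83 (SE 0.24, 95% interval -1.34 to -0.31, adjusted p = 0.0352 by limma) or 1.77-fold lower. The call was close to the threshold and was lost in 8 of 17 alternatives. The adjusted p by limma was 0.0511 without wild-type mouse 3, 0.0795 without wild-type mouse 2 and 0.0846 without wild-type mouse 4. It was 0.0555 to 0.0934 without knock-out mouse 2, 3, 4 or 5, and 0.106 with no limit on expression. The difference kept its sign in all 17 alternatives, from -1.01 to -0.68. Actc1 (ENSMUSG00000068614) lies on chromosome 2 at 114047282 to 114053548 on the minus strand and shared no 50-base stretch with Acta1.

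**Figure D2:**
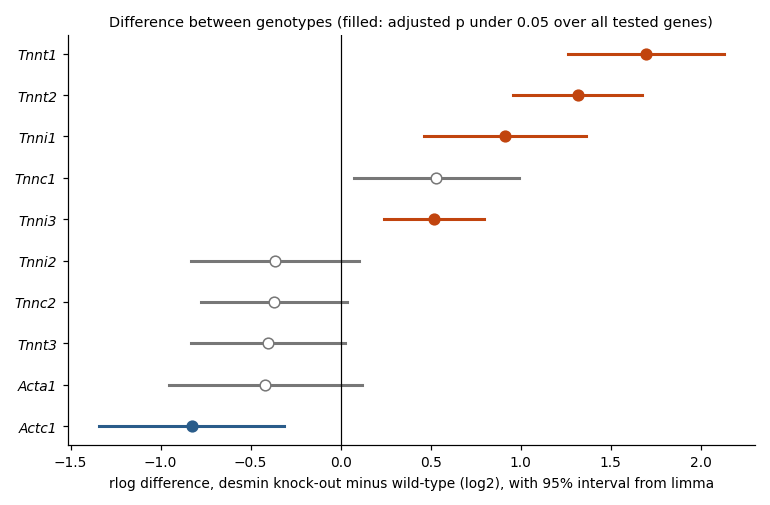
Difference in rlog value between desmin knock-out and wild-type muscle (log2, horizontal axis) for each gene, with the 95% interval from limma as a line. Filled points passed at an adjusted p under 0.05 (red higher, blue lower), and Tnnt1 at 1.70 and Actc1 at -0.83 are the extremes.

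Beside these values, markers of regenerating fibers moved with the genotype. Of 7 such genes, 5 were higher, among them myogenin (Myog, 1.23, adjusted p = 3.75e-04 by limma) and the fusion protein myomaker (Mymk, 1.93, adjusted p = 2.11e-05), and 1 was lower, MyoD (Myod1, -0.47, adjusted p = 0.0219). The summed level of the list was 11.10 to 11.82 in knock-out and 10.39 to 10.86 in wild-type mice, and its part in the rise of Tnnt2 and the slow troponins was not tested. Of 8 skeletal muscle markers, 1 was higher and 2 were lower, and their summed level was 20.30 to 20.42 in knock-out and 20.50 to 21.49 in wild-type mice, or 20.88 at most without wild-type mouse 3. Smooth muscle markers summed to 12.54 to 13.02 in knock-out and 12.77 to 13.63 in wild-type mice, with 0 of 6 higher and 1 lower. Of the tested cardiac markers, 0 of 2 passed in limma, and 0 had an unadjusted p under 0.05. Of 6 fibroblast markers, 3 were higher, and their summed level was 13.64 to 14.25 in knock-out and 13.16 to 14.18 in wild-type mice. Macrophage markers, of which 0 of 6 passed in limma and 0 had an unadjusted p under 0.05, summed to 9.49 to 9.91 and 9.45 to 9.95. Of 5 erythroid markers, 2 were lower, with summed levels of 11.49 to 12.09 in knock-out and 12.00 to 13.37 in wild-type mice, the highest being wild-type mouse 3.

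To ask whether the isoforms of a subunit changed by unequal amounts, the rlog values of 6 pairs were subtracted within each mouse, which cancels any single scaling factor per mouse. Slow troponin T relative to fast troponin T (Tnnt1 minus Tnnt3) lay between -6.48 and -6.06 in knock-out and between -8.73 and -8.08 in wild-type mice. Mean ratios differed by 2.10 on the log2 scale, or 4.29-fold (exact permutation test, two-sided, p = 0.00794, the smallest that 5 against 5 mice can give, adjusted p = 0.00952 over the 6 pairs). A scaling that depends on expression level does not cancel in a ratio, and after quantile normalization the difference was 1.75. Wild-type mouse 3, which was high in both genes, was the highest wild-type mouse in this ratio too, and it lay below every knock-out mouse.

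The other slow pairs differed in the same direction. For troponin I (Tnni1 minus Tnni2) the ratio was -7.64 to -6.73 in knock-out and -8.89 to -7.97 in wild-type mice, a difference of 1.28 or 2.42-fold. For troponin C (Tnnc1 minus Tnnc2) it was -7.77 to -7.00 compared with -8.58 to -7.93, a difference of 0.90 or 1.87-fold. Both had the same exact permutation p of 0.00794 (adjusted p = 0.00952), and the ranges of the genotypes did not overlap. Thus slow troponin C, which did not pass as a single gene, differed from its fast counterpart in all 5 knock-out mice against all 5 wild-type mice. After quantile normalization the differences were smaller, 1.03 for troponin I and 0.66 for troponin C.

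Cardiac troponin T also differed against its fast counterpart, and so did the ratio of Tnni3, a gene at the edge of detection. Tnnt2 minus Tnnt3 was -11.45 to -10.56 in knock-out and -13.40 to -12.46 in wild-type mice. The difference was 1.72 or 3.30-fold, and 1.22 after quantile normalization. Tnni3 minus Tnni2 was -15.25 to -14.84 compared with -16.70 to -15.41, a difference of 0.88 or 1.84-fold, of 0.68 without wild-type mouse 3 and of 0.49 after quantile normalization. The exact permutation p was 0.00794 for both (adjusted p = 0.00952). As Tnni3 reached the expression limit only through its knock-out values, its ratio is no support for a rise of cardiac troponins.

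The actin pair did not follow. Actc1 minus Acta1 was -9.09 to -8.07 in knock-out and -8.69 to -7.77 in wild-type mice, and these ranges overlapped. The difference of -0.41 did not pass (exact permutation test, p = 0.159, adjusted p = 0.159), whereas after quantile normalization it was -0.68 and passed (adjusted p = 0.0397).

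**Figure D3:**
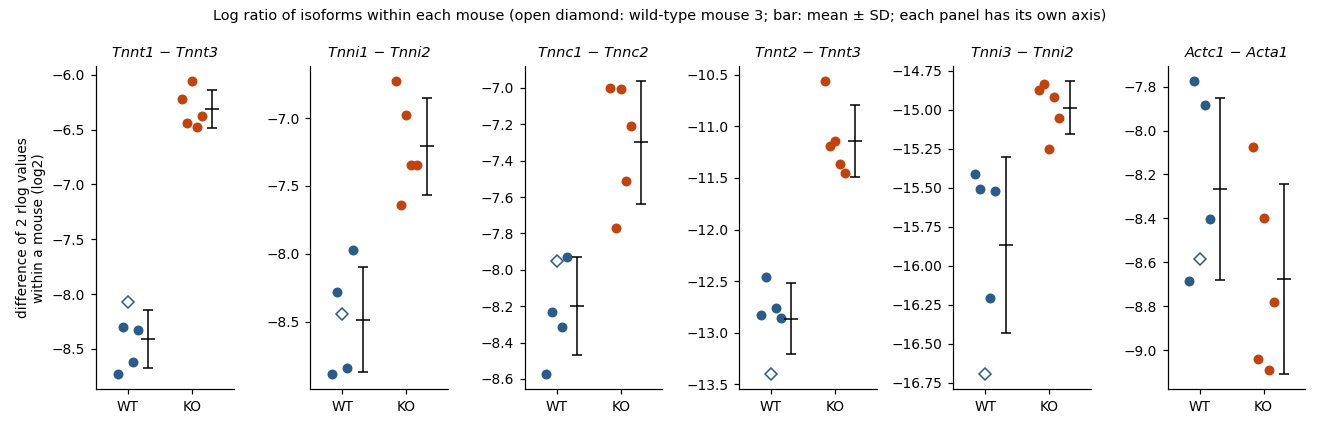
Difference of 2 rlog values within a mouse (log2, vertical axes, each panel with its own range) for 6 isoform pairs in wild-type (blue) and desmin knock-out mice (red), with wild-type mouse 3 as an open diamond and the mean ± SD as a bar. The 5 troponin pairs have all knock-out points above all wild-type points, and the actin pair overlaps.

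To compare levels between genes, values were taken per kb of annotated exons (rlog minus log2 of the length). In wild-type muscle, the level per length was 19.67 for Acta1, 19.34 for Tnnt3, 19.27 for Tnnc2 and 18.48 for Tnni2. It was then 11.33 for Actc1, 10.69 for Tnnc1, 10.45 for Tnnt1 and 8.73 for Tnni1, with Tnnt2 at 4.18 and Tnni3 at 2.15. The ranges over mice of the first 4 genes overlapped with those of their neighbours in this order, as did those of Actc1, Tnnc1 and Tnnt1. Without wild-type mouse 3, the ranges of Tnnc2 and Tnni2 no longer overlapped. The ranges of Tnni2 and Actc1 did not overlap, nor did those of neighbours from Tnnt1 down to Tnni3. In knock-out muscle, Tnnt1 came to the fifth place with 12.14 and Actc1 to the seventh with 10.50. The order at the top also depended on the length used, as Tnnt3 was first when the longest transcript or the coding length was taken, and with either of these Tnnt1 was in the fifth place in both genotypes.

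**Figure D4:**
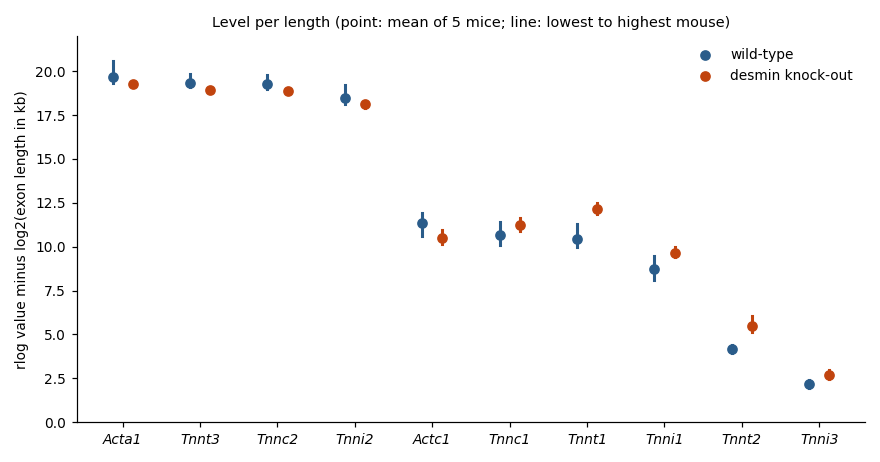
Level per length (rlog value minus log2 of exon length in kb, vertical axis) of the 10 genes in wild-type (blue) and desmin knock-out muscle (red), with points for the mean of 5 mice and lines from the lowest to the highest mouse. The fast troponins and Acta1 lie above 17.5 and all other genes below 13 in both genotypes.

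As a share of its family on this per-length scale, slow Tnnt1 made up 0.901% ± 0.111 of troponin T transcripts in knock-out and 0.213% ± 0.0386 in wild-type muscle (SD, n = 5). Tnni1 made up 0.287% ± 0.0721 of troponin I compared with 0.119% ± 0.0322, and Tnnc1 0.496% ± 0.109 of troponin C compared with 0.264% ± 0.0478. Fast isoforms made up 98.9% or more of their family in each mouse on this scale. With coding lengths the shares were larger, such as 1.30% and 0.308% for Tnnt1, and in knock-out muscle Tnni1 then came above Tnnc1 (0.699% and 0.640%). Actc1 made up 0.240% ± 0.0751 of sarcomeric actin in knock-out and 0.318% ± 0.0924 in wild-type muscle. Shares are estimates, since rlog values are shrunken.

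The changes of slow troponins were set beside other genes of the contractile apparatus. Of 9 other genes of the slow sarcomere, 3 were higher and 1 lower, with a median difference of 0.13. The higher genes were Csrp3 (1.49), which encodes the muscle LIM protein, Myoz2 (0.85), a Z-disc protein that binds calcineurin, and Mybpc1 (0.56, adjusted p = 0.0456 by limma), slow myosin binding protein C. The lower gene was Myl3 (-0.998, adjusted p = 0.0143), which encodes the essential light chain of slow and ventricular myosin. Myh7, the slow myosin heavy chain, had a difference of -0.05 and Tpm3, the slow tropomyosin, of 0.01, and neither passed. Tnnt1 exceeded Myh7 by 0.82 to 2.54 in knock-out mice, compared with -0.13 to 0.62 in wild-type mice. This pair was chosen after the values had been seen, and no test was made.

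Of 10 other genes of the fast sarcomere, 1 was higher and 3 were lower, with a median difference of -0.42. The 8 skeletal muscle markers also had a median difference of -0.42, whereas the 9 slow genes had one of 0.13. Whether this shift was particular to fast genes was not tested. Myh2, the myosin heavy chain of type 2A fibers, was higher by 0.77 (adjusted p = 0.0195 by limma). Mybpc2, the fast myosin binding protein C, fell by 1.05 (adjusted p = 0.00258), Actn3, the fast alpha-actinin of the Z-disc, by 0.97 (adjusted p = 0.0196), and Myh4, the heavy chain of type 2B fibers, by 0.71 (adjusted p = 0.0360). The call was lost in 11 of 17 alternatives for Myh4, and also in 11 for Mybpc1 of the slow list, in 4 for Myh2 and in 3 for Actn3. After quantile normalization, the difference of Myh4 was -0.36 (adjusted p = 0.161 by limma).

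Of 7 other cardiac and developmental genes, 5 were tested and 3 were higher, with a median difference of 0.85. These were Myh3, the embryonic myosin heavy chain (2.25, adjusted p = 5.89e-06 by limma), Myl4, the atrial and embryonic light chain (1.31, adjusted p = 2.63e-04), and Myh8, the perinatal heavy chain (0.85, adjusted p = 0.0134). Myl7 and Mybpc3, which are cardiac in adults, were under the expression limit. The other tested genes, Myh6 (0.36) and Mybph (-0.35), did not pass. The 3 higher genes, all known from developing muscle, thus had the direction of Tnnt2, and Actc1 had the opposite one. Myh3 and Myh8 are also in the list of regenerating fibers, so that the lists are not independent.

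Of 19 genes for structure and assembly of the thin filament, 2 were higher and 3 lower, with a median difference of 0.11. The higher ones were Lmod2 (1.01, adjusted p = 0.00704 by limma), a leiomodin that elongates actin filaments, and Klhl41 (0.51, adjusted p = 0.00579), a kelch protein of the sarcomere. Capzb, the capping protein of the barbed end, differed by -0.34 (adjusted p = 0.0297), Kbtbd13 by -0.43 (adjusted p = 0.0386) and Tmod4, a tropomodulin that caps the pointed end, by -0.53 (adjusted p = 0.0404), and these calls were lost in 8, 9 and 8 of 17 alternatives. Of the 4 non-sarcomeric actins, 0 passed in limma and 1 had an unadjusted p under 0.05, with a median difference of -0.34. Without wild-type mouse 3, 21 instead of 16 of the 45 tested genes in these lists passed, while calls over all tested genes rose from 1956 to 2496. The higher genes then numbered 4 instead of 3 in the slow, 2 instead of 1 in the fast and 4 instead of 2 in the thin filament list, and 1 instead of 0 non-sarcomeric actins was lower.

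**Figure D5:**
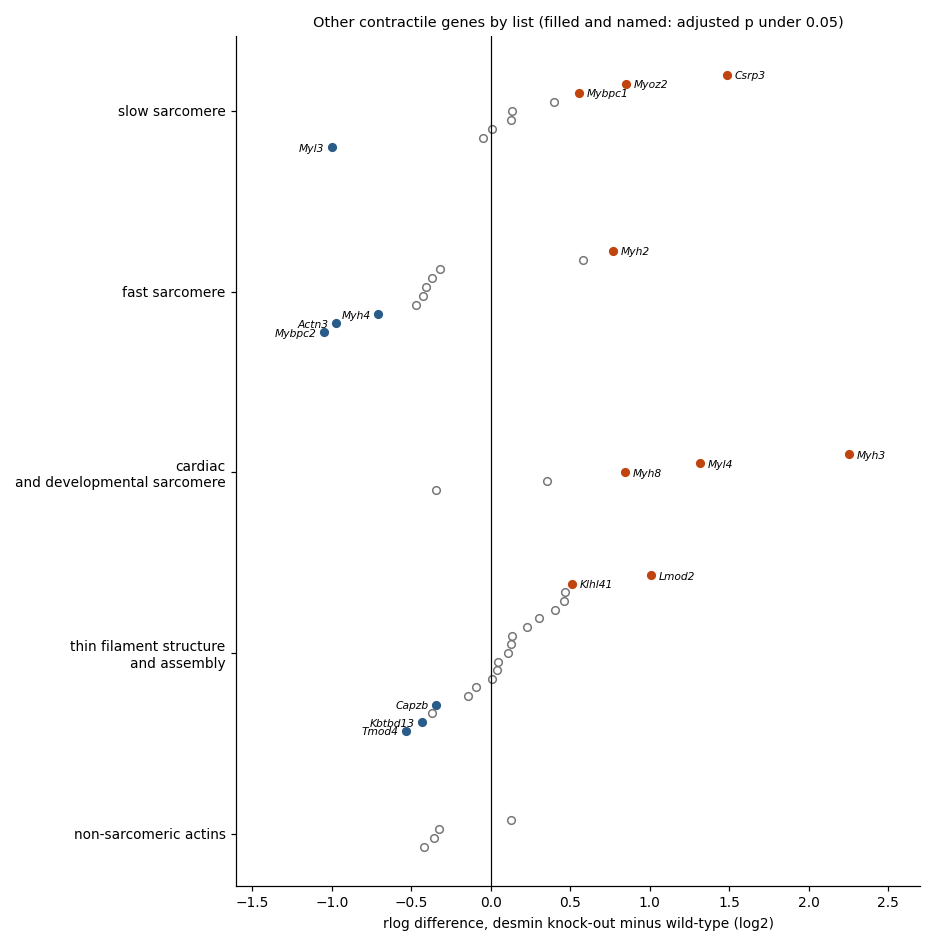
Difference in rlog value between desmin knock-out and wild-type muscle (log2, horizontal axis) for the tested genes of 5 lists (vertical axis), 1 point per gene, with filled and named points for an adjusted p under 0.05 (red higher, blue lower). The cardiac and developmental list has its 3 named genes on the right, led by Myh3 at 2.25, while fast genes lie mostly on the left.

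Across single mice, with the mean of each genotype removed, the slow troponins varied together. Pearson correlations between Tnnt1, Tnni1 and Tnnc1 were 0.893 to 0.934 over the 10 mice and 0.746 to 0.862 without wild-type mouse 3. For the fast troponins and Acta1 they were 0.846 to 0.976, and 0.482 to 0.972 without this mouse. Slow troponins also correlated with these fast genes, at 0.507 to 0.852, but at -0.498 to 0.458 without this mouse. Actc1 correlated with the slow troponins at 0.672 to 0.751, and at 0.533 to 0.662 without this mouse. Tnnt2, Tnni3 and Actc1 had correlations between -0.660 and 0.608 with each other. These are descriptions over 10 libraries, in which a single mouse and the shared scaling weigh heavily.

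The genes most like Tnnt1 over the 10 mice were Art5 (r = 0.991), Dhrs7 (r = 0.990) and Alox12 (r = 0.984), all 3 higher in knock-out muscle. For Tnnt3 they were Wdr54 (r = 0.989), H2afy (r = 0.984) and Dhrs7c (r = 0.981). For Actc1 they were Mrpl45 (r = 0.970), Trim32 (r = 0.944) and Aars2 (r = 0.941). Without wild-type mouse 3, these correlations were 0.990 to 0.991 for Tnnt1, 0.953 to 0.977 for Tnnt3 and 0.912 to 0.959 for Actc1. Their points share the genotype groups.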

How the data were processed

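RNA-seq of gastrocnemius, which the study's text gives together with plantaris, was used from 5 mice per genotype. Per the labels, libraries came from a stranded mRNA kit, and the submitters' processing notes name cutadapt 2.5, STAR 2.5.4a, Subread 1.6.1 with featureCounts, DESeq2 and GRCm38. The authors deposited DESeq2 rlog values on the log2 scale, corrected for library size. Shrinkage in this transformation understates differences, most for weakly expressed genes. Depth and counting error are unknown from them.

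Genes whose mean reached log2(10) entered a limma fit (version 3.58.1, R 4.3.3) (variance prior following the mean, two-sided, Benjamini-Hochberg over 14289 genes). Isoform ratios within mice were compared by exact permutation tests with adjustment over 6 pairs. Symbols and lengths came from GENCODE M21. The limma fit was tested on simulated data with planted differences and independent noise per gene. That simulation held no mouse that stood apart, and the permutation tests were not part of it.

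The genes and lists were chosen with earlier results of these data known. The text names the 10 genes, Des, up to 3 genes higher and 3 lower with the smallest adjusted p in each contractile list, and the 3 genes most correlated with Tnnt1, Tnnt3 and Actc1. Myog, Mymk and Myod1, the genes under the limit, Myh7, Tpm3, Ube2c, Gja1, Myh6 and Mybph were named in addition after their values were seen. Marker lists covered skeletal, cardiac and smooth muscle, regenerating fibers, erythroid cells, macrophages and fibroblasts. Alternatives were other expression limits, a stricter adjusted p, leaving out each mouse, a replicate block, sample weights, a single prior variance, and quantile normalization or median centring.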

Additional observations from a re-analysis of the deposited data

Results flagged for a closer look

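Of 64 groups of 5 mice that were examined, 5 had a mouse far from the others by Dixon's criterion, and chance gives about 1 in 20, or 3.2. The groups hold the same mice for different genes and are not independent, so that the number from chance is only a rough guide. Wild-type mouse 3 was that mouse in 4 of them. It was the highest wild-type mouse for Tnnt1 (12.43), Acta1 (21.18), Actn3 (19.34) and Tmod4 (15.47). Knock-out mouse 3 was the lowest of its group for Kbtbd13 (8.85). All 5 were flagged because the gap to the nearest mouse took up most of the group's range.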

How the results depend on the processing

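Of 169 values of the 10 genes under the alternatives, 157 kept their direction and their side of the threshold, 8 no longer passed, 3 newly passed and 1 changed sign. All 8 that no longer passed were Actc1, and the 3 that newly passed were Tnnc1 with sample weights, the replicate block and without wild-type mouse 3. Tnnt3 turned to 0.039 with quantile normalization. The number of the 10 genes that were lower was 0 with no limit on expression and 0 to 1 when 1 mouse was left out. At an adjusted p under 0.01, 2 of the 10 genes differed (2 higher, 0 lower), as did 994 of all genes and 6 of the list genes. With sample weights 4220 genes differed, compared with 1956, and wild-type mouse 3 had a weight of 0.100. List genes that differed numbered 7 with no limit on expression and 10 to 21 when 1 mouse was left out. The Actc1 to Acta1 ratio difference was -0.68 and passed with quantile normalization (adjusted p = 0.0397). Tnni3 had no value at a limit of log2(50).

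With the replicate number as a block, the ratio differences were 2.10, 1.28, 0.90, 1.72 and 0.88 for the 5 troponin pairs, but 5 pairs of mice cannot give an exact p under 0.0625 (adjusted p = 0.075). Mice of the same number did not vary together (r of -0.219 to 0.0673 over 5 pairs), and 0 of 5 knock-out mice correlated best with their own number. This check showed no pairing by number, but 5 pairs are too few to exclude it.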

Other observations

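Tnnt1 exceeded Tnni1 by 1.57 to 2.06 in knock-out and by 0.68 to 1.16 in wild-type mice, so that slow troponin T was further above slow troponin I in every knock-out mouse. Tnnt2 relative to Actc1, both genes of cardiac and developing muscle, was -3.07 to -2.41 in knock-out and -5.50 to -4.25 in wild-type mice. These pairs were chosen after the values had been seen and were not tested.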
